A study of Rattus norvegicus with 11 samples.

Results

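Voltage-gated sodium channels are described here in the trigeminal ganglion (TRG) of the rat, 7 days after an inflammation of the whisker pad. The members are 9 genes chosen by name, 7 for pore-forming alpha subunits (Scn1a, Scn2a, Scn3a, Scn8a, Scn9a, Scn10a and Scn11a) and 2 for accessory beta subunits (Scn2b and Scn3b). Each was found on the array by its RefSeq accession and was represented by 1 probe with 1 spot, so that 9 of 24684 probes are concerned.

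Male Wistar rats had received 50 μl of complete Freund's adjuvant (CFA, killed mycobacteria in paraffin oil) at 1 mg/ml under the skin of the whisker pad on 1 side, under ketamine and xylazine. Total RNA of the snap-frozen ganglia was measured on single-colour arrays that carry probes for mRNAs and long non-coding RNAs. The CFA group held 6 TRGs (rats 1, 2, 3, 5, 6 and 8) and the contralateral group 5 TRGs (rats 1, 2, 3, 5 and 6). The control was thus the other side of the same injected animals, and no ganglion of an uninjected or saline-treated rat was compared; the ages of the rats are not given in the labels.

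Sodium channel alpha subunits form the pore through which sodium enters during the upstroke of the action potential, and beta subunits alter the gating and the placement of the pore in the membrane. Most alpha subunits are blocked by tetrodotoxin (TTX), whereas those encoded by Scn10a (Nav1.8) and Scn11a (Nav1.9) resist it and are known from small nociceptive sensory neurons. In the literature on sensory ganglia these channels are studied for their part in the excitability of inflamed or injured afferents. The comparison asks whether the transcripts of the family differed between the inflamed and the contralateral side.

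All values are log2 of the background-corrected signal after quantile normalisation, and differences are log2 of CFA over contralateral, tested with limma over all probes. All 9 probes were well above background on all 11 arrays, as were 67.9% of all probes. The median processed signal of the arrays ranged from 74.6 to 117.0, and between 68.9% and 82.8% of the spots were well above background. The arrays were scanned on 3 days. Arrays with the same scan time were taken to share a slide, which gave 5 slides numbered in order of scan. Slide 1 held the contralateral TRG of rat 3, slide 2 those of rats 5 and 6 with the CFA array of rat 1, slide 3 the contralateral TRGs of rats 1 and 2, and slides 4 and 5 only CFA arrays (rats 2 and 3, and rats 5, 6 and 8). Slides 1 to 3 were scanned on the first day, and slides 4 and 5 on a day each. Only slide 2 held both groups, so a value within a slide rests on 1 CFA array against 2 contralateral arrays. No rat had both its sides on the same slide, so every difference within a rat is also a difference between slides. In RNA of a whole ganglion, fewer cells of a type and less RNA per cell cannot be told apart.

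Of the sodium channel probes, Scn1a alone was past an unadjusted p of 0.05, and it was higher on the CFA side. Among all probes 10.8% were past that p (4.02% higher and 6.75% lower), so 1 of 9 is close to the background. None of the 9 reached the threshold of the study, an unadjusted p of 0.05 with more than a 2-fold change, which 2.02% of all probes did (1.15% higher and 0.863% lower). After Benjamini-Hochberg adjustment in limma 0 of the 9 and 0 of all 24684 probes were past 0.05, against 1 and 2659 at the unadjusted p. Under other settings up to 121 of all probes were past that adjusted p, and still 0 of the 9. The members' differences ran from -0.19 to 0.25, with 5 above 0 and 4 below, and their median was 0.083 beside -0.041 for all probes. For 8 of the 9, all but Scn9a, the 95% interval lay within a 2-fold change either way, which held for 77.6% of all probes.

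**Figure D1:**
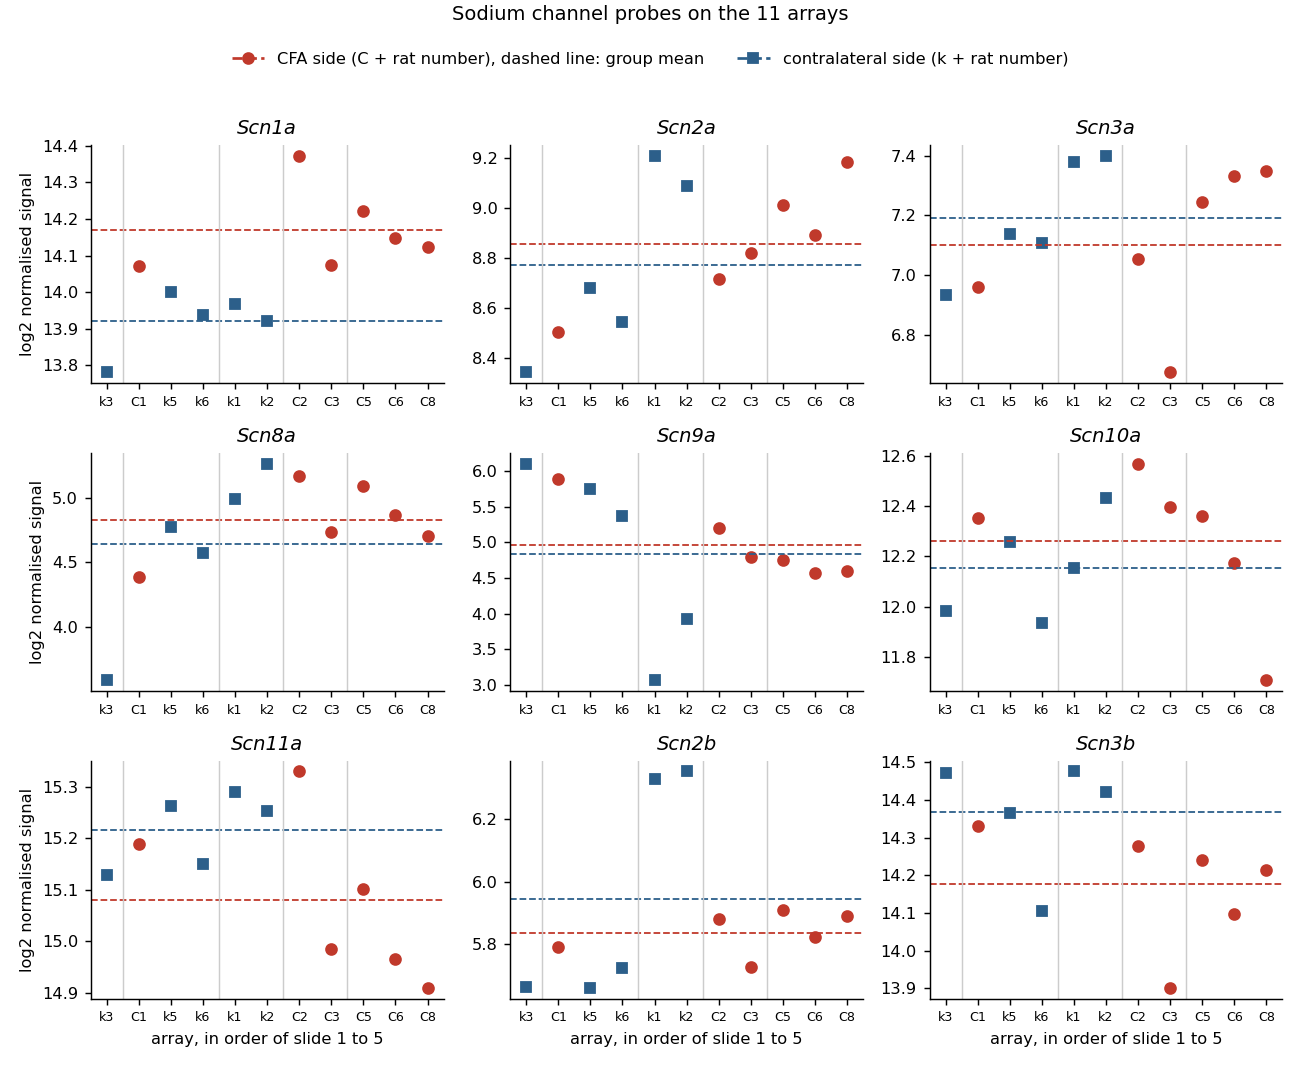
Log2 normalised signal of the 9 sodium channel probes (vertical axes, a range of its own for each gene) on the 11 arrays in order of slide (horizontal axis, grey lines between slides); circles are CFA ganglia, squares contralateral ganglia and dashed lines the group means. Only for Scn1a do all 6 CFA arrays lie above all 5 contralateral arrays, and on slide 3 (k1 and k2) Scn9a is low while Scn3a and Scn2b are high.

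Scn1a encodes Nav1.1, a TTX-sensitive channel known from myelinated sensory neurons and from inhibitory neurons of the brain. Scn1a measured 13.97, 13.92, 13.78, 14.00 and 13.94 in the contralateral TRGs of rats 1, 2, 3, 5 and 6. In the CFA TRGs it measured 14.07, 14.37, 14.07, 14.22, 14.15 and 14.12 in rats 1, 2, 3, 5, 6 and 8. Every CFA array was thus above every contralateral array, a separation in that direction that 0.527% of all probes showed (0.664% were separated the other way, 1.19% in all). The difference between the means of 14.17 ± 0.11 (SD, n = 6) and 13.92 ± 0.085 (SD, n = 5) was 0.25 (SE 0.081), a 1.19-fold higher signal with a 95% interval of 1.05 to 1.34. The limma p was 0.0115 and the adjusted p 0.387. A two-sided exact permutation test of this probe gave p = 0.00216, the smallest that 6 against 5 arrays allow. Scn1a was higher on the CFA side in 5 of 5 rats, by 0.10 to 0.45. That permutation p and the sign in 5 of 5 rats both follow from the separation of the groups and add nothing to it. With the rat as a block the difference was 0.26 and still past the unadjusted threshold (adjusted p = 0.488). Within slide 2 the CFA array exceeded the mean of the contralateral arrays by 0.10. With the slide as a block, which rests on those 3 arrays, the difference was also 0.10 (adjusted p = 0.930), and with the scan day as a block it was 0.15 (adjusted p = 0.913), neither past an unadjusted p of 0.05. The call was also lost when arrays were scaled to their 75th percentile (0.15, adjusted p = 0.619) or to their median (0.12, adjusted p = 0.841), without background correction and with normexp (0.14 in both).

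**Figure D2:**
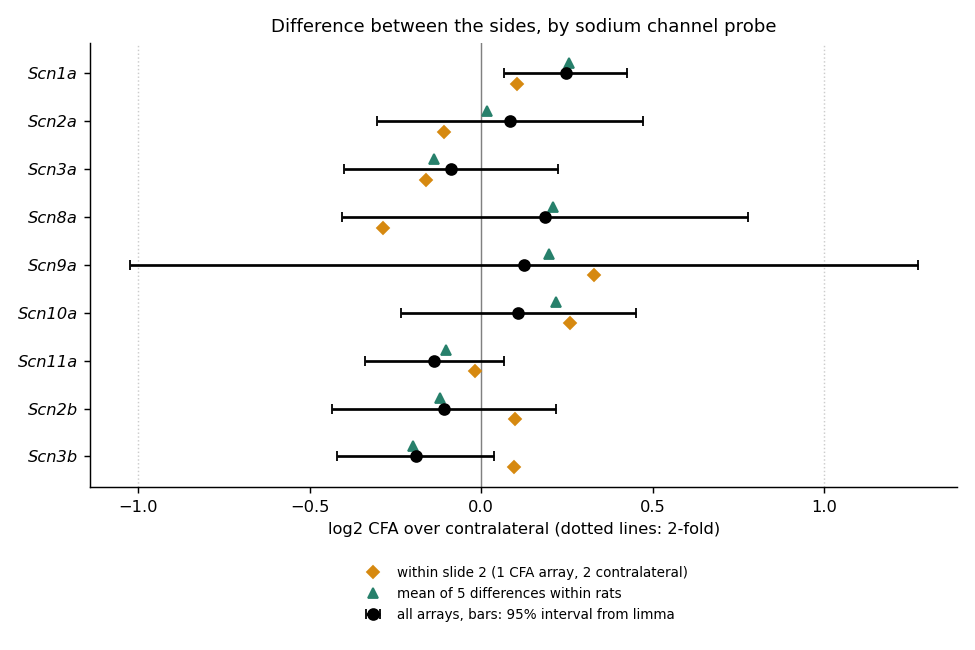
Log2 of CFA over contralateral (horizontal axis) for each sodium channel probe (vertical axis): circles with bars are the limma difference over all 11 arrays and its 95% interval, diamonds the difference within slide 2 and triangles the mean of the differences within 5 rats. The interval leaves out 0 for Scn1a alone, and the value within slide 2 lies on the other side of 0 for Scn2a, Scn8a, Scn2b and Scn3b.

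None of the other TTX-sensitive channels, Scn8a, Scn2a, Scn3a and Scn9a, showed a difference past an unadjusted p of 0.05. Scn8a encodes Nav1.6, the main channel of mature nodes of Ranvier. Scn8a measured 4.99, 5.26, 3.59, 4.78 and 4.57 on the contralateral side (rats 1, 2, 3, 5 and 6). Its CFA values were 4.39, 5.17, 4.74, 5.09, 4.86 and 4.70 (rats 1, 2, 3, 5, 6 and 8). The groups overlapped, the lowest value being the contralateral array of rat 3. The difference of 0.19 (SE 0.27, limma p = 0.505, adjusted p = 0.786, exact permutation p = 0.615) was -0.29 within slide 2 and -0.077 without the contralateral array of rat 3. It was 0.51 (adjusted p = 0.776) without the arrays of slide 3, again not past an unadjusted p of 0.05.

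Scn2a encodes Nav1.2, known mainly from axons of the central nervous system. Scn2a measured 9.21, 9.09, 8.34, 8.68 and 8.54 on the contralateral side (rats 1, 2, 3, 5 and 6). Its CFA values were 8.50, 8.72, 8.82, 9.01, 8.89 and 9.19 (rats 1, 2, 3, 5, 6 and 8). Its 2 highest contralateral values were those of slide 3, and the groups overlapped over most of their range. The difference was 0.083 (SE 0.18, limma p = 0.646, adjusted p = 0.854, exact permutation p = 0.658), and it was -0.11 within slide 2 and -0.024 without the contralateral array of rat 3. Without the arrays of slide 3 it was 0.33 (adjusted p = 0.748), not past an unadjusted p of 0.05.

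Scn3a encodes Nav1.3, which is abundant in embryonic neurons and is known to be re-expressed in rat sensory neurons after nerve injury. Scn3a measured 7.38, 7.40, 6.94, 7.14 and 7.11 on the contralateral side (rats 1, 2, 3, 5 and 6). Its CFA values were 6.96, 7.06, 6.68, 7.24, 7.33 and 7.35 (rats 1, 2, 3, 5, 6 and 8). Both slide 3 arrays exceeded every CFA array, and the other contralateral arrays lay within the CFA range. The difference was -0.089 (SE 0.14, limma p = 0.542, adjusted p = 0.806, exact permutation p = 0.558) and -0.16 within slide 2. Without background correction it was -0.29 (adjusted p = 0.595) and with a normexp correction -0.22 (adjusted p = 0.640), both past an unadjusted p of 0.05, whereas without the slide 3 arrays it was 0.043 (adjusted p = 0.958). Of the 9 genes of the nerve injury list that were measured (Atf3, Gal and others), 0 were past an unadjusted p of 0.05 in either direction. Among all probes 10.8% were past it, so 0 of 9 is near that share.

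Scn9a encodes Nav1.7, a TTX-sensitive channel of nociceptors and sympathetic neurons whose loss causes insensitivity to pain in humans. Scn9a measured 3.07, 3.93, 6.11, 5.75 and 5.38 on the contralateral side (rats 1, 2, 3, 5 and 6). The CFA side (rats 1, 2, 3, 5, 6 and 8) measured 5.89, 5.20, 4.79, 4.75, 4.58 and 4.60. The contralateral group therefore held the 2 lowest values, both of slide 3, and the highest value, and its SD was 1.29 (n = 5) against 0.50 (n = 6) in the CFA group. The difference was 0.12 (SE 0.52, limma p = 0.816, adjusted p = 0.931, exact permutation p = 0.829). Its 95% interval ran from -1.02 to 1.27, so a 2-fold change either way was not excluded. Within slide 2 the difference was 0.33. Without the 2 arrays of slide 3 it was -0.77 and past an unadjusted p of 0.05 in limma (adjusted p = 0.683), an alternative chosen after the values had been seen. Leaving out the contralateral array of rat 1 alone gave -0.32, that of rat 2 alone -0.11, and the CFA array of rat 1 alone -0.060.

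The Scn9a spot was dim. Its processed signal ran from 8.97 to 65.5 units, while the median pixel signal before background correction ran from 40 to 89 units over a local background of 16 to 27. Its values spanned 3.04 on the log2 scale with background correction and 1.28 without it. For Scn8a, whose processed signal was 12.5 to 40.4 units, the same spans were 1.67 and 0.59. For the bright Scn11a probe, at 25034 to 49443 units, they were 0.42 and 0.40.

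Scn10a and Scn11a, the TTX-resistant channels of nociceptors, follow each other in the RefSeq gene order of the rat, with no other protein-coding gene between them. Scn10a measured 12.15, 12.43, 11.98, 12.26 and 11.93 on the contralateral side (rats 1, 2, 3, 5 and 6). The CFA side (rats 1, 2, 3, 5, 6 and 8) measured 12.35, 12.57, 12.40, 12.36, 12.17 and 11.71. In 5 of 5 rats the CFA side was higher, by 0.11 to 0.42, while the CFA array of rat 8, which has no contralateral array, was the lowest of all 11. A higher value in all 5 rats was found for 4.74% of all probes, Scn1a among them. The difference over all arrays was 0.11 (SE 0.16, limma p = 0.499, adjusted p = 0.783, exact permutation p = 0.5) and 0.26 within slide 2. With the rat as a block it was 0.22 (adjusted p = 0.507), and without the CFA array of rat 8 it was also 0.22 (adjusted p = 0.515), neither past an unadjusted p of 0.05.

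Scn11a measured 15.29, 15.25, 15.13, 15.26 and 15.15 on the contralateral side (rats 1, 2, 3, 5 and 6). The CFA side (rats 1, 2, 3, 5, 6 and 8) measured 15.19, 15.33, 14.98, 15.10, 14.97 and 14.91. The highest value of all was the CFA array of rat 2, and 4 of the 6 CFA arrays were below every contralateral array. The difference was -0.14 (SE 0.092, limma p = 0.165, adjusted p = 0.570, exact permutation p = 0.117), with a 95% interval of -0.34 to 0.066, and it was negative in 4 of 5 rats. Without the CFA array of rat 2 it was -0.19 and past an unadjusted p of 0.05 (adjusted p = 0.527), and within slide 2 it was -0.017. The nearby genes thus had estimates of opposite sign, neither past the test.

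Beta subunits are single-span membrane proteins that associate with the alpha subunits. Scn3b encodes a beta subunit held to the alpha subunit without a disulphide bond. Scn3b measured 14.48, 14.42, 14.47, 14.37 and 14.10 on the contralateral side (rats 1, 2, 3, 5 and 6). Its CFA values were 14.33, 14.28, 13.90, 14.24, 14.10 and 14.21 (rats 1, 2, 3, 5, 6 and 8). The CFA side was lower in 5 of 5 rats, as for 8.39% of all probes, although hardly so in rat 6, and 4 contralateral arrays lay above every CFA array. The difference was -0.19 (SE 0.10, limma p = 0.0929, adjusted p = 0.504, exact permutation p = 0.0693). It was past an unadjusted p of 0.05 without the contralateral array of rat 6 (-0.26, adjusted p = 0.292) and with array weights (-0.21, adjusted p = 0.232), and it was 0.094 within slide 2.

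Scn2b encodes a beta subunit linked to the alpha subunit by a disulphide bond. Scn2b measured 6.33, 6.35, 5.66, 5.66 and 5.72 on the contralateral side (rats 1, 2, 3, 5 and 6). Its CFA values were 5.79, 5.88, 5.73, 5.91, 5.82 and 5.89 (rats 1, 2, 3, 5, 6 and 8). The arrays of slide 3 lay above all others, and the other contralateral arrays lay below every CFA array. The difference was -0.11 (SE 0.15, limma p = 0.479, adjusted p = 0.773, exact permutation p = 0.468). It was 0.098 within slide 2 and 0.15 (adjusted p = 0.781) without the arrays of slide 3.

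**Figure D3:**
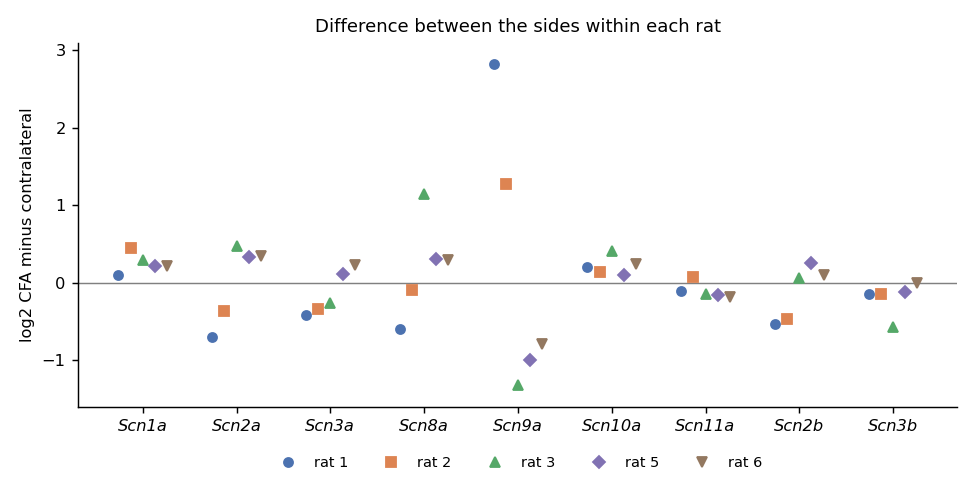
Log2 of the CFA side minus the contralateral side (vertical axis) within each of the 5 rats with both sides (symbols) for the 9 sodium channel probes (horizontal axis). Scn1a and Scn10a are above 0 in all 5 rats and Scn3b below 0 in all 5, while for Scn9a rats 1 and 2 lie at 2.82 and 1.28 and rats 3, 5 and 6 at -1.32, -0.99 and -0.80.

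The differences within rats split for several members by the slide of the contralateral array. In rats 1 and 2, whose contralateral arrays were those of slide 3, Scn9a was higher on the CFA side by 2.82 and 1.28. In rats 3, 5 and 6 the same difference was -1.32, -0.99 and -0.80. Scn2b went the other way, at -0.54 and -0.47 in rats 1 and 2 and at 0.064, 0.25 and 0.10 in rats 3, 5 and 6. Scn2a did likewise, at -0.71 and -0.37 against 0.48, 0.34 and 0.35. The slide 3 arrays held the 2 lowest of the 11 values for Scn9a, as for 7.14% of all probes without missing values, and the 2 highest for Scn3a and Scn2b, as for 9.5%. Whether these values come from the slide or from the ganglia of rats 1 and 2 cannot be told apart, since their contralateral sides were measured on no other slide.

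Position on the array was examined because the share of probes past the test varied along its 532 rows. In the first of 4 equal bands of rows, which held Scn8a, Scn9a and Scn2a, 8.24% of single-spot probes were higher and 0.910% lower at an unadjusted p of 0.05. In the second, with Scn3b, Scn10a and Scn11a, these shares were 2.56% and 7.34%, and in the last, with Scn1a, Scn2b and Scn3a, 4.74% and 11.5%. Within 20 rows of Scn1a the median difference of single-spot probes was 0.0079. The 175 neighbours of Scn1a of like signal, within 20 rows and 1 log2 unit, had a median difference of 0.11. After a smooth trend over the rows had been subtracted from each array, Scn1a differed by 0.35 (adjusted p = 0.319; over all 17 alternatives the adjusted p of Scn1a ran from 0.120 to 0.953). Scn8a moved from 0.19 to 0.059 and Scn9a from 0.12 to 0.012 under that correction, and their neighbours of like signal had medians of 0.38 and 0.30.

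**Figure D4:**
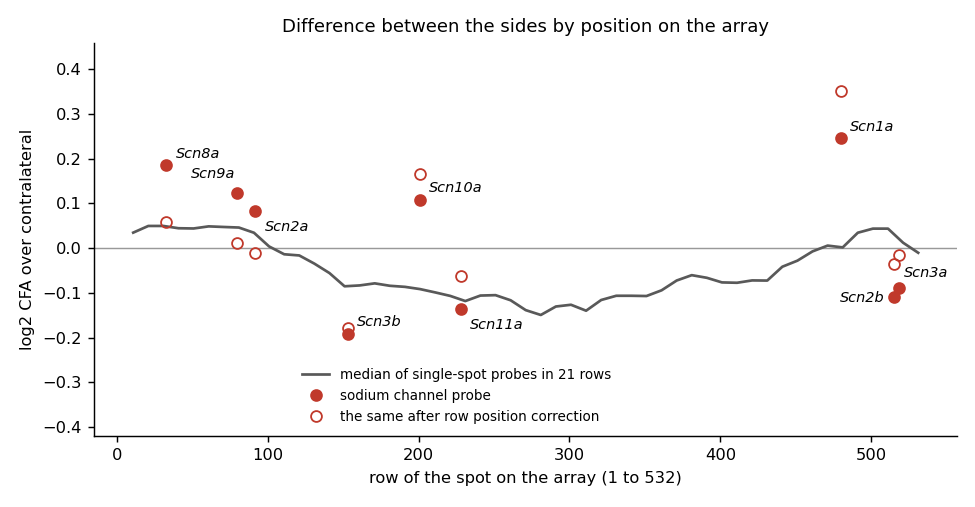
Log2 of CFA over contralateral (vertical axis) against the row of the spot on the array (horizontal axis): the line is the median of all single-spot probes in windows of 21 rows, filled circles are the sodium channel probes and open circles the same probes after row position correction. Scn1a lies at 0.25 and, corrected, at 0.35, and Scn8a, Scn9a and Scn2a come to lie nearer 0.

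Across 17 other ways of processing the same arrays, Scn1a kept a positive difference in 17, between 0.10 and 0.35, and was past an unadjusted p of 0.05 in 11. Leaving out each array in turn gave 0.21 to 0.27, past that p in 11 of 11. Scn10a was positive and Scn11a negative in all 17, with 0 past that p for either. For the other members 1 to 3 of the 17 changed the sign, and Scn9a ran from -0.77 to 1.04.

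**Figure D5:**
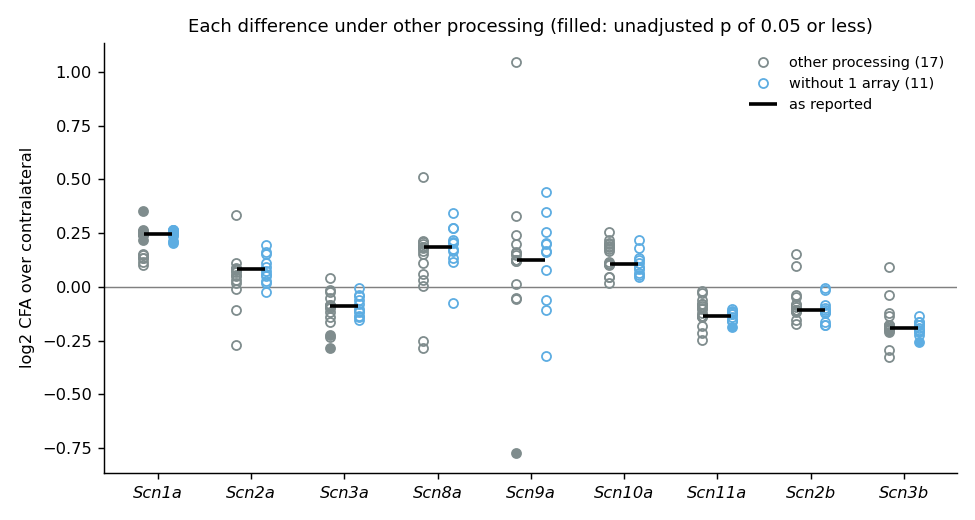
Log2 of CFA over contralateral (vertical axis) for each sodium channel probe (horizontal axis) as reported (black bar), under 17 other ways of processing (grey) and without each of the 11 arrays in turn (blue); filled circles have an unadjusted limma p of 0.05 or less. Scn1a stays between 0.10 and 0.35, and Scn9a spreads from -0.77 to 1.04.

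The other genes of sodium handling were read from lists. Of 31 partners and regulators of the channels 26 were measured, with 3 higher and 1 lower at an unadjusted p of 0.05 (4.02% and 6.75% of all probes) and a median of 0.11 beside -0.041 for all probes. Fgf13, an intracellular factor that binds the tail of sodium channels, was lower by limma (difference -0.20, SE 0.082, adjusted p = 0.439), in 5 of 5 rats, and its groups overlapped. S100a10, an annexin partner known to carry Nav1.8 to the membrane, was higher by 0.31 (SE 0.13, adjusted p = 0.440) in 5 of 5 rats, but was at -0.033 within slide 2. Pdzd2, a PDZ-domain protein that was well above background on 9 of 11 arrays, was higher by 1.39 (SE 0.63, adjusted p = 0.464) and past the study's threshold, and was at 0.31 (adjusted p = 0.868) without the arrays of slide 3. With the rat as a block Fgf13 (-0.21, adjusted p = 0.508) and Pdzd2 (1.38, adjusted p = 0.528) were no longer past an unadjusted p of 0.05. The last of the 4, Nrcam, an adhesion molecule of the nodes, was not well above background on any array. Over the 17 other ways of processing Fgf13 was past an unadjusted p of 0.05 in 8, S100a10 in 10 and Pdzd2 in 6. With the slide as a block none of the 3 was (-0.077, -0.033 and 0.29), nor with the scan day as a block (-0.20, 0.064 and 1.89) or the row correction (-0.13, 0.19 and 1.31). Leaving out 1 array ended the call of Fgf13 for 5 of the 11 arrays (contralateral rats 1, 2 and 3, CFA rats 2 and 6), of S100a10 for 5 (contralateral rats 1 and 3, CFA rats 2, 3 and 5) and of Pdzd2 for all but contralateral rats 5 and 6.

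Of 12 genes of the sodium pump and the sodium exchangers 0 were past an unadjusted p of 0.05, beside 10.8% of all probes. The smallest p values were those of Fxyd7, a regulator of the pump, with a difference of 0.59 (SE 0.35, adjusted p = 0.528), and of the sodium-calcium exchangers Slc8a1 at -0.24 (SE 0.14, adjusted p = 0.531) and Slc8a2 at 0.89 (SE 0.55, adjusted p = 0.546). Slc8a1 was well above background on 7 of the 11 arrays and Slc8a2 on 10, and Slc8a2 was at -0.23 within slide 2 and at -0.16 without the arrays of slide 3. Fxyd7 was higher in 5 of 5 rats, and with the rat as a block or without the CFA array of rat 8 its difference was 0.84 and past an unadjusted p of 0.05 (adjusted p = 0.360 and adjusted p = 0.449).

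Marker genes were counted in the same way, against 10.8% of all probes past an unadjusted p of 0.05. Of 13 measured nociceptor markers 1 was higher and 1 lower at an unadjusted p of 0.05, of 9 markers of large myelinated afferents 0, and of 8 general neuronal markers 1 was higher, with medians of 0.0055, -0.061 and 0.16. The log2 of the summed linear signal of the nociceptor markers, which the brightest markers dominate, spanned 19.4 to 19.6 in the CFA group. It spanned 19.4 to 19.5 in the contralateral group. Of 7 satellite glia markers 0 were past that p and of 9 Schwann cell markers 1, higher. Of the other lists, 0 of 10 macrophage, 0 of 10 muscle and 0 of 7 red blood cell markers were past it. Among the red blood cell markers Hba1 and Hba-a2 were read from the same probe. Of 9 markers of the central nervous system 1 was past that p, lower. Markers of the anterior pituitary, 0 of 8 past that p, varied most. The log2 of their summed linear signal was 12.0 to 18.2 in the CFA group and 11.5 to 16.7 in the contralateral group. The CFA array of rat 2, where Gh1 reached 16.23 and Prl 15.32, also gave the highest values of Scn1a, Scn10a and Scn11a. The contralateral array of rat 6 had the next highest Gh1 and Prl, at 15.52 and 14.33. There Scn1a, Scn10a and Scn11a were at 13.94, 11.93 and 15.15, not among the highest values. Without the CFA array of rat 2 the difference of Scn1a was 0.21 (adjusted p = 0.479). The part of pituitary RNA in the values of any channel, Scn1a included, was not tested.

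The genes whose signal followed a channel most closely over the 11 arrays are given as a description, without a test, for arrays that share slides and normalisation. Among 11423 probes for named mRNAs well above background on every array, Scn9a was followed most closely by Ctsr, Oprd1 and Cyp4f6 (Pearson's r = 0.98, 0.97 and 0.96). Oprd1 encodes the delta opioid receptor. At the other end of that order stood Scn2a (r = -0.89, rank 11417) and Scn2b (r = -0.87, rank 11406). Scn10a was followed by Crtc2, Dnajc7 and Metrn (r = 0.93, 0.93 and 0.92) and Scn11a by Dph2, Atp2a2 and Impdh1 (r = 0.90, 0.89 and 0.89). Scn10a and Scn11a had r = 0.52 with each other, at rank 831 of the order for Scn10a, and Scn3b was the member most like Scn11a (r = 0.65, rank 462).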

How the data were processed

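The intensity of each spot was deposited by the authors as output of Agilent Feature Extraction 11.0.1.1, with a local background subtracted and no normalisation between arrays. A table of linear quantile-normalised intensities that the authors also deposited served as an alternative. Control spots were left out, spots marked as outliers were set to missing, and log2 values were quantile normalised and averaged per probe (24684 probes). CFA and contralateral arrays were compared with limma 3.58.1 (R 4.3.3), without pairing, as the methods name none, and p values were adjusted over all probes (Benjamini-Hochberg). The number of arrays, 6 and 5, limits the precision. With the slide as a random block the correlation within slides was 0.43. The main limma p values and intervals and the permutation p treat the arrays as independent and leave the slide out. The fit was tested on simulated data with independent noise on each array and no effect of slide, scan day or row. That test therefore cannot show how the fit behaves under such effects. Probes were named through unversioned RefSeq accessions (14274 of 15321 mRNA probes matched). The 2 sides of a rat come from the same animal. After removal of group means their correlation across probes ran from -0.083 to 0.13 and was over 0.1 in 1 of 5 rats. In 0 of 5 rats was the CFA array most correlated with the contralateral array of its own rat. With the rat as a random block the correlation within rats was -0.023. The differences within rats thus rest on the rat numbers of the samples. Every member was named; of the lists, the 4 partners and 3 pump or exchanger genes with the smallest p, and the 3 probes most like Scn9a, Scn10a and Scn11a. The members and lists were chosen with earlier results of these data known. The normexp alternative used the median pixel signal. A list of other sodium channel genes is not reported here.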

Additional observations from a re-analysis of the deposited data

How the results depend on the processing

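The count of sodium channel probes at an unadjusted p of 0.05, 1 as reported, was 0 under 75th percentile scaling, median scaling and the slide or scan day as a block. It was 2 with array weights and 2 without the slide 3 arrays, and 1 to 2 when single arrays were left out. Without background correction and with normexp it was also 1, but the probe was Scn3a in place of Scn1a. The counts past the study's threshold and past an adjusted p of 0.05 stayed at 0 under every alternative, and the members' median difference, 0.083 as reported, ran from -0.077 to 0.081 when single arrays were left out. It was -0.055 without background correction, -0.051 with normexp, -0.038 with the scan day as a block, -0.011 with the row correction and 0.15 without the slide 3 arrays. Of all probes 498 passed the study's threshold; this was 47 without background correction, 16 with normexp, 288 with a filter on dim probes, 290 with a floor on dim spots, 902 with array weights, 233 with the slide as a random block and 330 to 796 when single arrays were left out. The filter takes dim probes out and the floor raises dim values by construction, and for the others the cause was not tested. At an adjusted p of 0.05 the count over all probes, 0 as reported, was 86 with array weights, 69 with the slide and 35 with the scan day as a block, 2 without the slide 3 arrays, 121 when the CFA side of rat 1 was left out, and 4 and 3 when the contralateral side of rat 3 or of rat 5 was. Signs turned as follows. With the slide as a block, and within slide 2 for the channels, Scn2a was at -0.11, Scn8a at -0.29, Scn2b at 0.098, Scn3b at 0.094, S100a10 at -0.033 and Slc8a2 at -0.23. With the scan day as a block Scn2a was at -0.27 and Scn8a at -0.25, and with the row correction Scn2a was at -0.011. Scn9a was at -0.055 without background correction and -0.051 with normexp. Without the slide 3 arrays, a setting added after the data had been seen, Scn3a was at 0.043, Scn9a at -0.77, Scn2b at 0.15 and Slc8a2 at -0.16. Leaving out single arrays gave -0.32 to 0.44 for Scn9a, -0.024 to 0.19 for Scn2a and -0.077 to 0.34 for Scn8a. With the rat as a replicate block the count of sodium channel probes stayed at 1 (Scn1a) and 370 probes passed the study's threshold; Fgf13 (-0.21) and Pdzd2 (1.38) lost their calls, Fxyd7 gained one (0.84), and the calls of the other genes tested this way did not change. The slide and the group overlap on 1 slide only, and dim probes such as Scn9a and Scn8a are the least precise.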
